A study of Mus musculus with 12 samples.

Results

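The SOCS (suppressor of cytokine signalling) feedback inhibitors and the STAT (signal transducer and activator of transcription) factors were followed in regulatory T cells (Treg) with and without Ikaros. The genes were chosen by symbol. They were the 4 SOCS family genes Socs1, Socs2, Socs3 and Cish, and the 5 STAT genes Stat3, Stat4, Stat5a, Stat5b and Stat6, 9 of the 36222 genes in the deposited expression table. Each symbol had 1 identifier, and all 9 averaged 5 TPM or more in some group (TPM are reads corrected for gene length and brought to a total of 1000000 per library), the level at which 13318 genes were tested. RNA was sequenced from 12 libraries of Treg, 3 in each of 4 groups. All mice carried Cre recombinase with YFP at the Foxp3 gene, so both the deletion and the sort for CD4+ YFP+ cells (from spleen, per the labels) depended on Foxp3 expression, on a B6 background. The wild-type (WT) mice carried only this allele, and the Ikzf1 fl/fl Foxp3-YFP-Cre mice (cKO) in addition lost Ikzf1, the gene of the zinc-finger factor Ikaros, in Treg. The mice were 6 to 8 weeks old, and each library came from an individual mouse per the study's methods. The cells were taken either directly after the sort (ex vivo) or after 4 h in wells carrying CD3 and CD28 antibodies, each at 1 µg/ml (stimulated).

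Cytokine receptors of this family carry Janus kinases (JAK). When a cytokine binds, the kinases phosphorylate the receptor and the STAT proteins docked on it, and the STAT dimers enter the nucleus and switch on target genes. Among the targets are the SOCS genes, whose proteins bind the kinases or the receptors and damp the signal, so that SOCS transcripts are used as a readout of recent cytokine signalling. Treg depend on interleukin-2, which signals through STAT5A and STAT5B and maintains Foxp3.

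The libraries held 8208659 to 20247649 reads assigned to genes, fewest in the stimulated cKO group (8208659 to 10930376). Ikzf1, the targeted gene, stood at 104.9 ± 20.6 TPM in WT and 41.9 ± 2.82 TPM in cKO ex vivo, and at 74.8 ± 8.48 and 25.2 ± 7.43 TPM after stimulation (SD, n = 3, values as deposited), with no overlap between genotypes. A single predicted gene, Gm10800, took 17.7% to 55.9% of all TPM, the largest share in library 3 of stimulated cKO Treg, so all levels given here are TPM rescaled between libraries by the trimmed mean of M-values (TMM), called scaled TPM. Without this rescaling the median of all tested genes shifted by 0.21 (log2) for the genotype effect ex vivo, -0.30 after stimulation, 0.18 for stimulation in WT, -0.31 in cKO and -0.52 for the interaction, while with TMM it stayed within -0.04 and 0.01. Library 3 of WT ex vivo Treg stood apart by sex: Xist was at 179 TPM there and at most 1.36 TPM in the other 11, and Ddx3y, a gene of the Y chromosome, was at 0.0970 TPM. It was therefore not from the same animal as the male library 3 of stimulated WT Treg, and results that rest on it are given with and without it. The 7 Treg markers summed to 1233 to 2213 scaled TPM per library. The other cell types were lower: 5 B cell markers summed to 10.5 to 16.8 in WT and 17.7 to 21.9 in cKO ex vivo, and to 12.5 to 14.0 and 17.5 to 28.0 after stimulation; 5 myeloid markers to at most 26.7 both CD8 markers to at most 14.5, both NK markers to at most 7.37 and 5 erythroid markers to at most 8.66, with Lyz2 at 2.33 at most. Of the B cell markers, Cd79a reached 3.00 at most, and Cd79b stood at 4.95 to 8.15 in WT and 10.3 to 11.0 in cKO ex vivo (log2 difference 0.70, adjusted p = 0.11) and at 2.43 to 5.50 and 6.51 to 8.64 after stimulation (0.96, adjusted p = 0.0283). Cd68 was the highest myeloid marker, at 15.2 at most. The B cell sum thus was higher in cKO in both conditions, as were several of the genes below, and its part in their differences was not tested. In such bulk libraries, fewer cells of a type and less RNA per cell cannot be told apart.

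The members fall into a few places in the genome (build NCBIM37, the same as mm9; GENCODE vM1 annotation). Stat5b, Stat5a and Stat3 are neighbours on chromosome 11: Stat5b (100642045 to 100712038, minus strand) and Stat5a (100720665 to 100746483, plus strand) start 8626 bases from each other, and Stat3 (100746412 to 100800854, minus strand) ends within the last 72 bases of Stat5a on the opposite strand, which the strand-specific counting keeps apart. Socs3 lies 17026538 bases from Stat3 on the same chromosome (117827393 to 117831361, minus). Socs1 is at 10783901 to 10785629 on chromosome 16 (minus), Cish at 107198357 to 107205115 on chromosome 9 (plus), Stat4 at 52043992 to 52164032 on chromosome 1 (plus), and Socs2 (94847996 to 94879814, minus) and Stat6 (127080042 to 127098013, plus) on chromosome 10. No exon of any member overlapped another gene on its own strand. Some reads could nonetheless fit more than 1 gene: of all 51-base stretches of its protein-coding transcripts, the length of 1 sequenced end, Stat5a shared 14.4% with Stat5b, Stat5b shared 10.9% with Stat5a, and Socs2 shared 6.09% with Gm9847. Gm9847 itself had 4 to 26 reads per library, against 369 to 1824 for Socs2.

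Promoters, 250 bases before to 50 bases after the start, were read from RefSeq (GRCm38.p6) for 8 of the 9 members, all but Socs2. They are shown for the members that differed most by genotype, with the STAT motif TTCNNNGAA, and GGGAA, the core bound by Ikaros and by several other factors, searched on both strands. TTCNNNGAA, which reads the same on both strands, was in the promoters of Cish and Socs3 and in none of the other 6, against 9.55% of 27025 genes. GGGAA was in 7 of the 8 (not in Stat3), against 65.5% of genes. The letters of the motifs can overlap each other, and a match describes the sequence, not binding. Matches are in capitals, 5′ to 3′ on the gene's strand. The Socs3 stretch spans bases -200 to -101 from the start (chr11:117969467-117969566, minus) and holds both motifs. The Cish stretch runs from base -5 to 25 (chr9:107296654-107296683, plus), where TTCNNNGAA stands at bases 1 and 12. The Socs1 stretch (-200 to -101, chr16:10785637-10785736, minus) holds only GGGAA.
Socs3: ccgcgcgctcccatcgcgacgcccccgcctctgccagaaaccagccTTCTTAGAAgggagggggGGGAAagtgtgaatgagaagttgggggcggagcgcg
Cish: cagttTTCCTGGAAagTTCTTGGAAatctg
Socs1: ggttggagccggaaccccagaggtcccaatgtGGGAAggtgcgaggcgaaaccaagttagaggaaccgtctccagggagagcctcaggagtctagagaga

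Among the inhibitors, Socs1 encodes the protein that blocks JAK activity directly and is needed to limit interferon-γ and common γ-chain cytokines. Ex vivo its transcript stood at 68.5, 66.8 and 98.5 scaled TPM in WT libraries 1 to 3 and at 94.1, 71.5 and 89.4 in cKO. The genotypes overlapped, and the difference of 0.14 ± 0.22 (log2, SE; 95% interval -0.35 to 0.62; limma adjusted p = 0.83) did not pass the test. After stimulation it stood at 61.3, 38.5 and 51.1 scaled TPM in WT and at 278, 239 and 176 in cKO, so that every cKO library was far above every WT library. This 4.52-fold difference (log2 2.18 ± 0.22, adjusted p = 0.000285) was called in each of the 12 fits that left out a library. The interaction, the test of whether Socs1 answered stimulation differently in cKO, was 2.04 (adjusted p = 0.0137), and was not called under the 1 TPM filter (adjusted p = 0.51), without a filter (0.49) or as deposited (0.0984). In cKO it rose by 1.42 ± 0.22 (adjusted p = 0.000526), a change that was 0.87 and not called under the 1 TPM filter (adjusted p = 0.0925) and 0.88 without a filter (adjusted p = 0.0936), while in WT it was 0.62 lower without passing the threshold (log2 change -0.62 ± 0.22, adjusted p = 0.0502). That difference was called in 6 of 23 alternatives (voom adjusted p = 0.00452), and was -0.43 without WT ex vivo library 3 (adjusted p = 0.19) and -0.43 as deposited (adjusted p = 0.37), where the WT groups overlapped.

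Socs2, which restrains growth hormone and other STAT5-linked receptors, had the lowest scaled TPM of the members in each group. Ex vivo it stood at 4.92, 5.41 and 6.61 scaled TPM in WT and at 12.5, 15.0 and 14.4 in cKO. After stimulation the WT libraries held 5.12, 4.16 and 5.17 scaled TPM and the cKO libraries 26.6, 23.7 and 18.2. All 6 cKO libraries were above all 6 WT libraries. Socs2 was higher in cKO by 1.17 ± 0.15 ex vivo (2.26-fold, adjusted p = 0.00147) and by 2.02 ± 0.15 after stimulation (4.06-fold, adjusted p = 6.25e-05). Stimulation raised it in cKO (0.66 ± 0.15, adjusted p = 0.00473) and gave -0.19 ± 0.15 in WT (adjusted p = 0.35). The rise in cKO depended on the scaling: as deposited, the cKO libraries of both conditions overlapped and the change was 0.35 with an adjusted p of 0.28.

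Socs3, an inhibitor of receptors that contain gp130 (Il6st) and a STAT3 target, was the member that fell with stimulation. The WT libraries held 79.6, 79.2 and 69.3 scaled TPM ex vivo and 25.2, 27.9 and 28.7 after stimulation. The cKO libraries held 174, 121 and 153 ex vivo and 52.1, 63.4 and 37.5 after stimulation, above the WT libraries of the same condition in both cases. Stimulation lowered Socs3 in both genotypes, by 2.72-fold in WT (log2 -1.45 ± 0.18, adjusted p = 0.000144) and 2.93-fold in cKO (-1.55 ± 0.18, adjusted p = 7.74e-05), and the interaction of -0.10 had a 95% interval of -0.66 to 0.45. The genotype difference was 0.95 ± 0.18 ex vivo (1.94-fold, adjusted p = 0.0119) and 0.85 ± 0.18 after stimulation (1.80-fold, adjusted p = 0.0179). The ex vivo call was lost without cKO library 1 (adjusted p = 0.0547) or 3 (0.0527), and the stimulated call without WT library 1 or 2 or cKO library 1 or 2 (adjusted p = 0.0511 to 0.0646), while the difference kept its direction. The stimulated call was also lost with only the groups compared, as deposited (0.57, adjusted p = 0.18), under the 1 TPM filter (0.55, 0.44) and without a filter (0.55, 0.44).

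Cish, a STAT5 target whose protein blocks STAT5 docking and also dampens T cell receptor signals, was the steadiest member within WT. Its WT values were 44.0, 41.5 and 39.9 scaled TPM ex vivo and 38.9, 39.6 and 40.03 after stimulation. The cKO libraries held 74.2, 56.3 and 74.7 ex vivo and 91.5, 98.2 and 66.96 after stimulation, all above every WT library. Cish was higher in cKO by 0.69 ± 0.14 ex vivo (1.61-fold, adjusted p = 0.0206) and by 1.08 ± 0.14 after stimulation (2.11-fold, adjusted p = 0.00151). The second call held in each fit that left out a library. It was lost as deposited (0.79, adjusted p = 0.0977), under the 1 TPM filter (0.77, 0.31) and without a filter (0.78, 0.30). The first was lost without WT library 2 (adjusted p = 0.0555), without the female WT library 3 (0.65, adjusted p = 0.0747), or without cKO library 1 (0.0872) or 3 (0.0884), and with the TPM as deposited (0.92, adjusted p = 0.0782). Stimulation gave no called change in either genotype (-0.08 in WT, adjusted p = 0.71, and 0.31 in cKO, adjusted p = 0.10). The change in cKO was called in 4 of 23 alternatives: under the 10 TPM filter (0.56, adjusted p = 0.00168), with median of ratios (0.37, 0.0470) or quantile scaling (0.90, 3.96e-05), and without cKO stimulated library 3 (0.52, 0.00795). It was -0.23 under the 1 TPM filter.

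**Figure D1:**
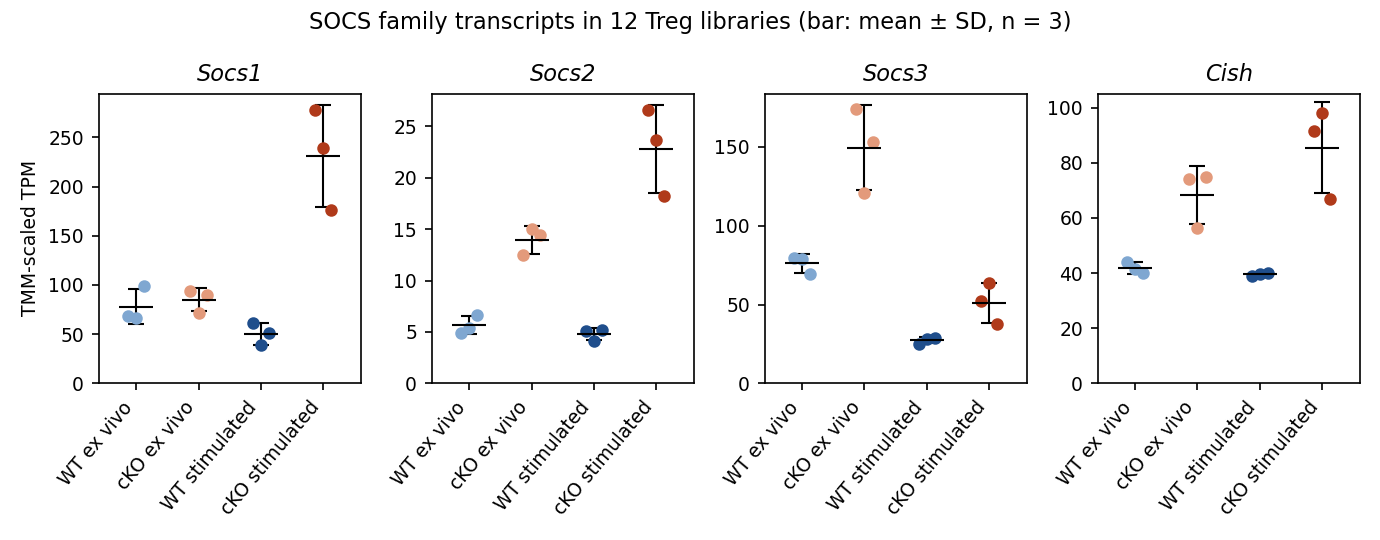
Scaled TPM (vertical axis, from 0, a separate scale for each gene) of the 4 SOCS family genes in the 12 libraries; points are libraries 1 to 3 from left to right within a group, and the bars are the mean and SD (n = 3). The cKO points of Socs2, Socs3 and Cish lie above the WT points of the same condition, those of Socs1 only after stimulation, and Socs3 falls with stimulation in both genotypes.

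Among the STAT genes, Stat3, which transmits interleukin-6, interleukin-10 and interleukin-21 signals, stood at 52.6, 43.8 and 46.4 scaled TPM in WT and 63.6, 51.6 and 55.5 in cKO ex vivo. After stimulation it stood at 85.1, 79.5 and 90.9 in WT and at 119, 142 and 97.9 in cKO. Each stimulated library was above each ex vivo library, and on the scaled values the genotypes overlapped ex vivo and not after stimulation. Stat3 rose with stimulation by 0.83 ± 0.14 in WT (1.78-fold, adjusted p = 0.000916) and 1.05 ± 0.14 in cKO (2.07-fold, adjusted p = 0.000161). The genotype difference after stimulation, 0.47 ± 0.14, missed the threshold (adjusted p = 0.0617), which it passed in 5 of 23 alternatives, among them without cKO library 3 (0.64, adjusted p = 0.0175). It was 0.17 under the 1 TPM filter and without a filter, and 0.18 as deposited, where the genotypes overlapped after stimulation and not ex vivo.

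Stat4, which answers interleukin-12, showed the largest rise with stimulation of the 9 members in both genotypes. It stood at 55.4, 45.2 and 47.7 scaled TPM in WT and 49.8, 39.9 and 47.7 in cKO ex vivo, and at 120.05, 128 and 134 in WT and 170.3, 184 and 117 in cKO after stimulation. The genotypes overlapped in both conditions, while no stimulated library came near the ex vivo range. The rise was 2.55-fold in WT (log2 1.35 ± 0.16, adjusted p = 0.000101) and 3.33-fold in cKO (1.74 ± 0.16, adjusted p = 1.54e-05), and the interaction of 0.39 was not called (95% interval -0.11 to 0.88, adjusted p = 0.45).

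Stat5a and Stat5b, the closely related factors downstream of interleukin-2, rose together with stimulation. Stat5a stood at 53.2, 40.5 and 36.7 scaled TPM in WT and 63.6, 50.3 and 45.7 in cKO ex vivo, and at 85.5, 86.8 and 91.7 in WT and 103, 127 and 83.8 in cKO after stimulation. Stat5b stood at 86.6, 73.3 and 67.4 in WT and 67.8, 58.9 and 59.1 in cKO ex vivo, and at 124, 126 and 124 in WT and 114, 131 and 97.1 in cKO after stimulation. Stat5a rose by 1.02 ± 0.18 in WT (2.03-fold, adjusted p = 0.00128) and 0.96 ± 0.18 in cKO (1.94-fold, adjusted p = 0.00158), and Stat5b by 0.72 ± 0.12 in WT (1.65-fold, adjusted p = 0.00118) and 0.86 ± 0.12 in cKO (1.82-fold, adjusted p = 0.000300). With the TPM as deposited the rises in cKO were 0.63 (adjusted p = 0.0867) and 0.54 (adjusted p = 0.0950) and were not called. Neither differed by genotype at the threshold: Stat5a was 0.29 ± 0.18 higher in cKO ex vivo and 0.23 ± 0.18 after stimulation (adjusted p = 0.46 for both), and Stat5b gave -0.28 ± 0.12 (adjusted p = 0.26) and -0.14 ± 0.12 (adjusted p = 0.52).

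The opposite signs of these small differences appeared as a shift in the ratio of the pair. A single scaling factor per library cannot alter this ratio, while quantile normalization can. The ratio also depends on the exon lengths behind the TPM (7133 bases for Stat5a and 5539 for Stat5b). Stat5a made up 38.1%, 35.6% and 35.3% of the Stat5a and Stat5b TPM in WT and 48.4%, 46.1% and 43.6% in cKO ex vivo, and 40.9%, 40.8% and 42.5% in WT and 47.5%, 49.2% and 46.3% in cKO after stimulation. The genotypes did not overlap in either condition, with differences of 9.73 and 6.30 percentage points. The share was also higher in stimulated than in ex vivo WT Treg without overlap, by 5.08 points, and the cKO conditions overlapped (1.65 points, exact permutation p = 0.4). In exact two-sided permutation tests the other 3 comparisons had p = 0.1, the smallest that 3 libraries against 3 can give, and the pair was singled out after its values were seen.

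**Figure D2:**
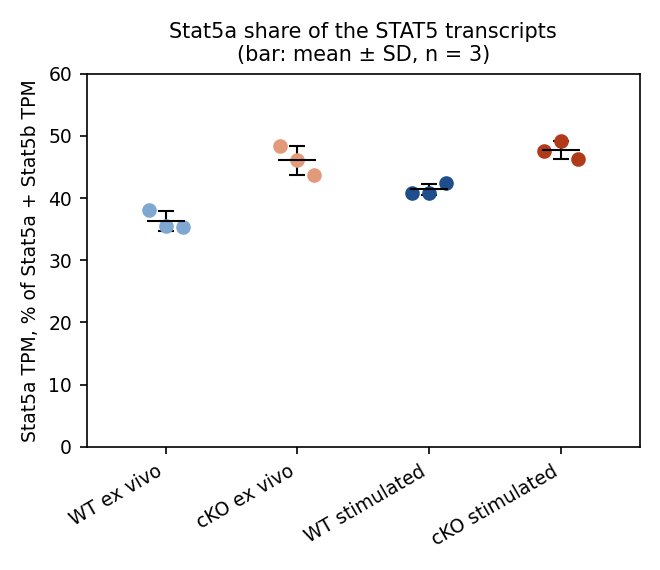
Stat5a TPM as a percentage of the Stat5a and Stat5b TPM (vertical axis, from 0) in the 12 libraries, with the mean and SD of each group (n = 3). The 6 cKO libraries lie between 43.6% and 49.2% and the 6 WT libraries between 35.3% and 42.5%.

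Stat6, which answers interleukin-4, varied least of the members, with 1.40-fold between its highest and lowest group mean. It stood at 57.8, 52.0 and 65.6 scaled TPM in WT and 47.5, 41.4 and 51.3 in cKO ex vivo, and at 60.6, 69.4 and 66.3 in WT and 54.7, 58.9 and 44.4 in cKO after stimulation. The cKO libraries lay below the WT libraries in both conditions, without passing the test (-0.32 ± 0.13 in each; adjusted p = 0.21 ex vivo and 0.16 after stimulation). As deposited, the genotypes overlapped ex vivo, and the differences were -0.083 ex vivo and -0.60 after stimulation. Stimulation gave 0.16 in WT (adjusted p = 0.35) and 0.17 in cKO (adjusted p = 0.30). The rise was called under the 10 TPM filter (0.28 in WT, adjusted p = 0.0283, and 0.41 in cKO, 0.00379). It was also called with quantile normalization (0.51 in WT, 0.000359, and 0.64 in cKO, 7.09e-05). Under the 1 TPM filter the change was -0.091 in WT and -0.37 in cKO, and neither was called.

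**Figure D3:**
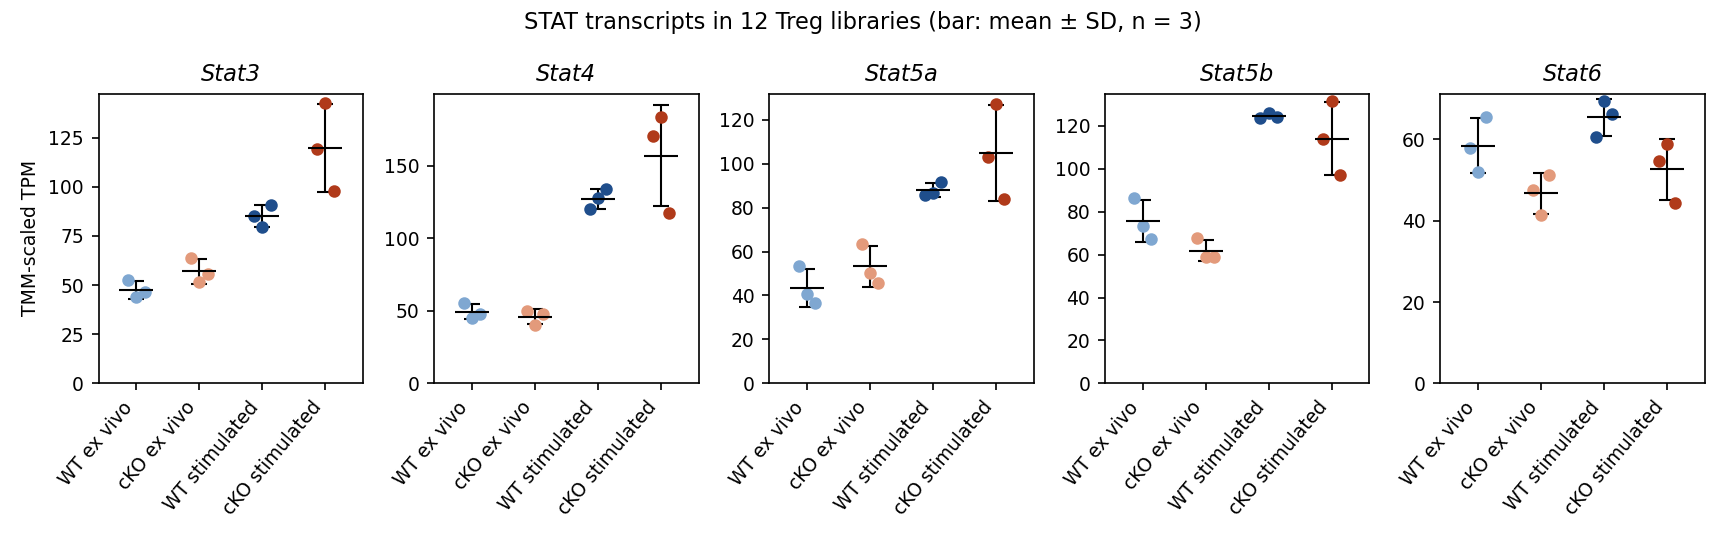
Scaled TPM (vertical axis, from 0, a separate scale for each gene) of the 5 STAT genes in the 12 libraries; points are libraries 1 to 3 from left to right within a group, and the bars are the mean and SD (n = 3). Stat3, Stat4, Stat5a and Stat5b lie higher in all stimulated libraries than in the ex vivo libraries of the same genotype, and Stat6 does not.

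TPM are corrected for the joined length of all annotated exons of a gene (9532 bases for Socs2, 6419 for Cish and 1220 for Socs1). This can exceed the length of the transcripts expressed, so the order of the 9 levels and their sums depend in part on the annotation. In WT ex vivo Treg, Socs1 (77.9 ± 17.8), Socs3 (76.0 ± 5.82) and Stat5b (75.7 ± 9.82 scaled TPM, SD, n = 3) stood highest and overlapped, and Socs2 (5.65 ± 0.872) was far below the other 8. In cKO ex vivo Treg, Socs3 (149 ± 26.8) was above all others without overlap. In stimulated WT Treg, Stat4 (127 ± 6.96) and Stat5b (125 ± 1.12) led, and Socs3 (27.3 ± 1.82) and Socs2 (4.81 ± 0.570) closed the order. In stimulated cKO Treg, Socs1 (231 ± 51.6) had the highest mean, overlapping with Stat4 (157 ± 35.1). The sum of the 4 SOCS family levels was 193 to 214 in WT and 264 to 355 scaled TPM in cKO ex vivo, and 110.1 to 131 in WT and 298 to 448 in cKO after stimulation, whereas the summed level of the 5 STAT genes was 242 to 306 over all ex vivo libraries and 440.3 to 644 over all stimulated libraries.

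The comparison of cKO with WT ex vivo asked which members change with the loss of Ikaros in unstimulated Treg. Of the 4 SOCS family genes, 3 (Socs2, Socs3 and Cish) were higher in cKO, and none of the 5 STAT genes was called. Of the 5 early response genes Cd69, Egr1, Egr2, Nr4a1 and Myc, Nr4a1 was lower in cKO ex vivo, at 857 to 1219 scaled TPM in WT and 541 to 654 in cKO (-0.78, adjusted p = 0.0251), and its part in the differences of the members was not tested. Over all 13318 genes 3.62% were called higher in this comparison. The median log2 difference was 0.82 for these 4 SOCS family genes and -0.11 for the STAT genes, beside -0.01 for all genes. Leaving out a library gave 1 to 3 called members, and 2 without the female WT library 3 (Socs2, and Socs3 at an adjusted p of 0.0485).

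After stimulation, all 4 SOCS family genes were higher in cKO and again no STAT gene was called, against 3.3% of all genes called higher. The median log2 difference was 1.55 for these 4 SOCS family genes, 0.23 for the STAT genes and -0.03 for all genes. The other SOCS genes (Socs4 to Socs7) are not in this median and are given below. With the TPM as deposited, 2 members (Socs1 and Socs2) were called and the genotypes overlapped for Socs3. With quantile normalization Stat3 (0.78, adjusted p = 0.000179), Stat4 (0.48, 0.00763) and Stat5a (0.47, 0.0452) were called higher in cKO as well.

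**Figure D4:**
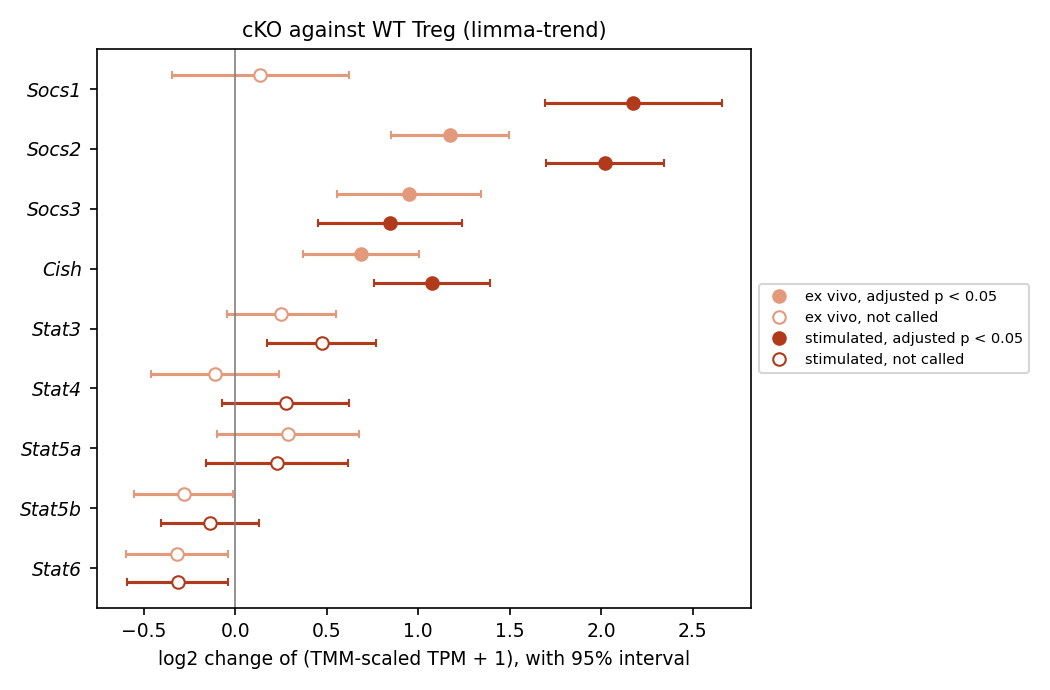
Difference of cKO from WT (horizontal axis, log2 of scaled TPM + 1, with 95% intervals from limma) for the 9 members, ex vivo and stimulated; filled points passed an adjusted p of 0.05. Filled points occur only for the SOCS family genes, at 0.69 to 1.17 ex vivo and 0.85 to 2.18 after stimulation.

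The stimulation comparisons asked what 4 h of culture on CD3 and CD28 antibodies changes in each genotype. The ex vivo cells were not cultured, so culture and antibodies cannot be told apart. Of 5 genes that respond early to T cell receptor signals, Egr2 rose (1.48 in WT and 1.31 in cKO, adjusted p = 5.12e-05 and 9.21e-05), as did Myc (0.61 and 0.64, adjusted p = 0.0113 and 0.00703). Cd69 fell (-1.36 and -1.71, adjusted p = 0.000517 and 9.42e-05). Egr1 gave -0.58 in WT (adjusted p = 0.0964) and fell in cKO (-0.69, adjusted p = 0.0404), and Nr4a1 fell in WT (-0.55, adjusted p = 0.0307) and gave 0.16 in cKO (adjusted p = 0.46). The 5 summed to 1401 to 2034 scaled TPM in WT and 1059 to 1235 in cKO ex vivo, and to 1012 to 1107 and 812 to 1172 after stimulation. In WT, 4 STAT genes (Stat3, Stat4, Stat5a and Stat5b) rose, beside 12.7% of all genes called higher, and Socs3 fell, beside 19.3% called lower. In cKO the same 4 STAT genes rose together with Socs1 and Socs2, beside 17.3% of all genes, and Socs3 fell, beside 26.5%. The median log2 change of the STAT genes was 0.83 in WT and 0.96 in cKO, with 0.00 and -0.01 for all genes. The mean myeloid marker sum was 13.7 ex vivo and 22.3 scaled TPM stimulated in WT, and 14.8 and 24.4 in cKO, without overlap. Cd68 rose (0.86 and 0.65, limma adjusted p = 0.000492 and 0.00239). The mean Treg marker sum was 2066 and 1285 in WT and 2137 and 1522 in cKO, also without overlap, although Tnfrsf18 rose (0.79 and 0.58). The B cell sums overlapped between conditions. The part of these shifts in the members' changes was not tested. The comparisons of genotype and of stimulation share libraries and are not independent of each other.

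The interaction tests whether stimulation acts differently in cKO. Socs1 was the only member called (2.04 ± 0.31, 95% interval 1.36 to 2.72, adjusted p = 0.0137), beside 0.451% of all genes called in this direction. Socs2 had an interaction of 0.85 ± 0.21 (adjusted p = 0.0818). It passed in 4 of 22 alternatives, among them without cKO stimulated library 3 (1.04, adjusted p = 0.0429). Another of them, the 10 TPM filter, is no support, because Socs2 passed that filter only through the cKO groups. The Socs2 interaction was 0.55 under the 1 TPM filter (adjusted p = 0.71), 0.54 without a filter and 0.37 as deposited (adjusted p = 0.43). For the STAT genes the estimates lay between -0.06 and 0.39 and none was called. At an unadjusted p under 0.05, 2 of the SOCS family genes and 0 of the STAT genes passed, beside 14.5% of all genes. The Socs1 interaction was not called as deposited (1.51), under the 1 TPM filter (1.75) or without a filter (1.73).

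**Figure D5:**
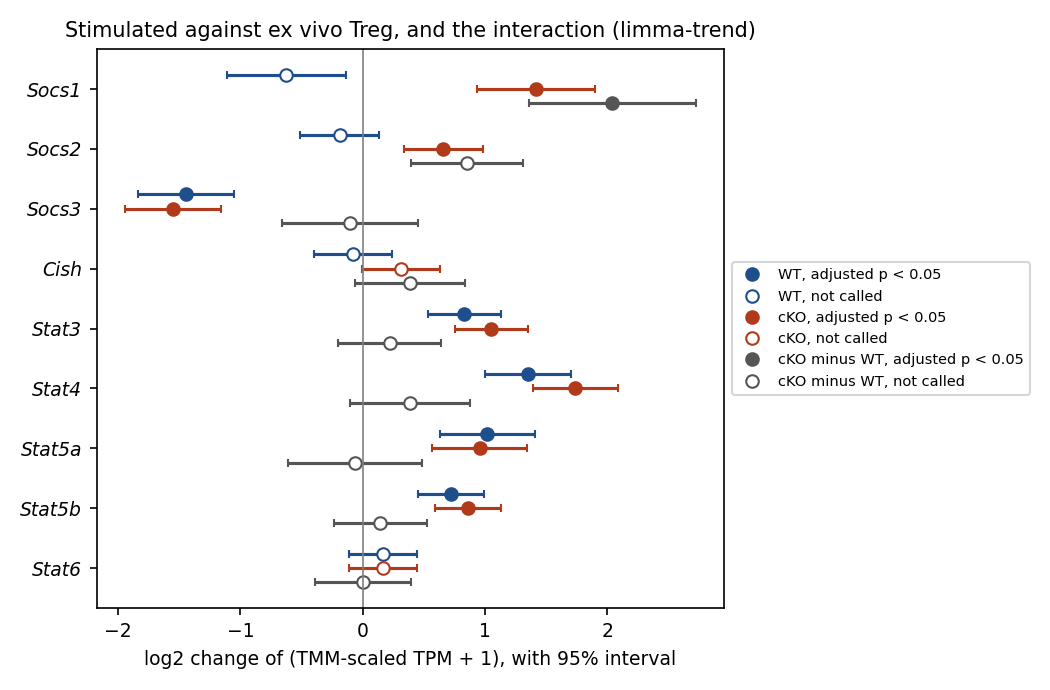
Change from ex vivo to stimulated (horizontal axis, log2 of scaled TPM + 1, with 95% intervals from limma) in WT and in cKO, and their difference (the interaction), for the 9 members; filled points passed an adjusted p of 0.05. Socs1 is the only member with a filled interaction point, at 2.04.

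The calls depended on which genes entered the fit. When all genes that averaged 1 TPM or more in some group were kept (33873 genes), fewer members passed: 0 in the genotype comparison ex vivo (0.168% of genes called), 1 after stimulation (0.201%), 1 for stimulation in WT (5.43%), 2 in cKO (17.4%) and 0 for the interaction (0.0%). Ex vivo the differences themselves hardly moved (Socs2 1.17, Socs3 0.94, Cish 0.67), and after stimulation they were smaller (Socs1 1.87 with an adjusted p of 0.0517, Cish 0.77 with 0.31). The rises with stimulation were also smaller. In WT they were 0.57 for Stat3 (adjusted p = 0.29), 1.10 for Stat4 (0.0565), 0.76 for Stat5a (0.18) and 0.46 for Stat5b (0.36). In cKO they were 0.51 for Stat3 (adjusted p = 0.25), 1.19 for Stat4 (0.0178), 0.41 for Stat5a (0.39), 0.32 for Stat5b (0.44) and 0.14 for Socs2 (0.73). The calls that held under both filters were Socs2 for genotype after stimulation, Socs3 for stimulation in WT and in cKO, and Stat4 for stimulation in cKO. At an unadjusted p under 0.05 the 5 TPM fit passed 3 SOCS family and 2 STAT genes ex vivo, beside 17.9% of all genes, and 4 and 2 after stimulation, beside 23.8%.

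The other genes of the pathway were taken from lists set by role, 58 genes of which 52 were tested. Ex vivo 6 were higher and 1 lower in cKO, beside 3.62% and 1.67% of all genes, and after stimulation 12 were higher and 8 lower, beside 3.3% and 3.63%. The 12 include Il2 and Il12rb2, which passed the filter only through the stimulated cKO group. Under the 1 TPM filter 0 and 1 of them were called. Of the Janus kinases Jak1, Jak2, Jak3 and Tyk2, none was called by genotype. Jak3, the kinase of the common γ chain, stood at 54.8 to 61.5 scaled TPM in WT and 72.3 to 78.8 in cKO ex vivo (0.40, adjusted p = 0.0907), and Jak1 at 88.1 to 99.8 and 66.8 to 78.3 after stimulation (-0.39, adjusted p = 0.0608). With stimulation Jak3 fell in both genotypes (-1.10 in WT, adjusted p = 6.67e-05, and -1.16 in cKO, adjusted p = 3.94e-05), as did Jak1 (-0.57 and -0.79). Of the other 6 STAT and SOCS genes, the interferon-linked Stat2 (0.94, adjusted p = 0.000561) was higher in cKO after stimulation. Socs5 was higher in cKO ex vivo (0.41, adjusted p = 0.0178) and lower after stimulation (-0.34, adjusted p = 0.0307), with an interaction of -0.75 (adjusted p = 0.0149). Socs4 (-0.11 ex vivo and -0.09 after stimulation), Socs6 (-0.06 and 0.15) and Socs7 (0.22 and 0.02) were not called by genotype.

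Among the ligands, 5 of 11 cytokines were tested. Ifng, the gene of interferon-γ, was higher in cKO both ex vivo (22.5 ± 4.31 against 71.2 ± 19.4 scaled TPM; 1.60, adjusted p = 0.00616) and after stimulation (4.00 ± 1.08 against 28.5 ± 9.67; 2.54, adjusted p = 0.000325). Il10 was higher ex vivo (0.87, adjusted p = 0.0366). Il2 was at 0.657 to 2.03 scaled TPM in stimulated WT Treg and at 6.35 to 11.8 in stimulated cKO Treg. Its group mean reached 5 TPM only in stimulated cKO Treg, so it was tested because it is high there, and the difference is given as values only. Lif was higher in cKO after stimulation (0.64, adjusted p = 0.0401).

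Of 17 receptor chains, all tested, 1 was higher (Il10ra, 0.53, adjusted p = 0.0184) and 1 lower (Ifngr1, the ligand-binding chain for interferon-γ, -0.97, adjusted p = 0.00498) in cKO ex vivo. After stimulation 4 were higher and 6 lower. Of all genes, 3.62% were called higher and 1.67% lower ex vivo, and 3.3% and 3.63% after stimulation. The count of 4 includes Il12rb2, at 2.10 to 2.32 scaled TPM in WT and 5.54 to 6.84 in cKO, which like Il2 passed the filter only through stimulated cKO Treg and is given as values only. The others were Il2ra (0.80, adjusted p = 0.00972), Il10ra (0.69, adjusted p = 0.00392) and Il12rb1 (0.54, adjusted p = 0.0249), and the largest falls were Ifnar1 (-0.72, adjusted p = 0.0105) and Il6ra (-0.61, adjusted p = 0.00986). Stimulation lowered 8 of the 17 chains and raised 0 in WT, and lowered 10 and raised 3 in cKO, beside 19.3% of all genes called lower and 12.7% higher in WT and 26.5% and 17.3% in cKO.

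Of 12 other negative regulators tested, Ptpn11 was higher in cKO ex vivo (0.60, adjusted p = 0.00548) and Ptpn6, the phosphatase SHP-1, was lower after stimulation (-0.67, adjusted p = 0.00204). Of 10 STAT5 target genes, Pim1 was higher ex vivo (0.64, adjusted p = 0.0420). After stimulation Bcl2, an inhibitor of cell death (0.98, adjusted p = 0.00101), Foxp3 (0.96, adjusted p = 0.00847), Il2ra (0.80) and the cyclin Ccnd2 (0.67, adjusted p = 0.0237) were higher, and 0 were lower. The shares of all genes given for the receptor chains, 3.62% higher and 1.67% lower ex vivo and 3.3% and 3.63% after stimulation, are the background of these counts too. Bcl2 had an interaction of 1.33 (adjusted p = 0.0122). The median log2 difference of the 10 was -0.02 ex vivo and 0.33 after stimulation, beside -0.01 and -0.03 for all genes.

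For each member whose group means spanned at least 2-fold, the 3 tested genes of most similar course over the 12 libraries were found by the root mean square (RMS) difference of centred log2 values. Stat5a was nearest to Fosl2 (0.11), Sik3 (0.12) and Stat3 (0.13), and Stat3 to Stat5a, Sh2d2a and Sik3. Stat5b was nearest to Map3k1 (0.095), Cars and Pkp4, and Stat4 to Crem (0.15), Isy1 and Itgb8. Cish was nearest to Ptgfrn (0.16), Gprin3 and Cyfip1, and Socs3 to Gdap10 (0.21), Nfil3 and Naip5. Socs2 was nearest to Gpld1 (0.26), Ube2l6 and Prnp, and Socs1 to D630039A03Rik (0.30), Kcnj15 and Gpld1. Gpld1 was thus shared by Socs1 and Socs2, and no other member was among the nearest 3 of any SOCS family gene.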

How the data were processed

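Total RNA depleted of ribosomal RNA was sequenced with a strand-specific kit. Per the labels and the published methods, the authors aligned the reads to mm9 with STAR 2.6.0c and counted them on Ensembl exons with HTSeq 0.6.1, using the strand. The deposited table holds TPM, an expression signal per gene and library, and log2 values to which the authors had added the TPM of 1 read. Dividing the TPM by that addition gave back whole reads for 99.9977% of values (within 0.01). A further deposited table holds the authors' own tests (fold changes, F, p-values and FDR) and was not used.

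TPM are not counts. Libraries were scaled by TMM (30% of M-values and 5% of A-values trimmed) over the 13318 genes averaging 5 TPM or more in some group, a pseudocount of 1 was added, and limma 3.58.1 (with a mean-variance trend, R 4.3.3) was fitted to log2 values of all 12 libraries with group as the only term. P-values are two-sided, Benjamini-Hochberg adjusted over all 13318 genes within each of 5 comparisons, and called under 0.05. Fold changes refer to log2(scaled TPM + 1) and understate changes of low genes. The filter of 5 TPM in place of 1 TPM, the members and the gene lists were chosen with earlier results of these data known. Named were the members, Ikzf1, Gm10800, called list genes (at most the 4 largest changes per direction), and the 3 genes nearest each member by RMS difference. Ddx3y, Xist, Gm9847 and cell type and stimulation markers were added as checks, and Socs4, Socs6 and Socs7 as the other SOCS genes listed. Some listed genes are not reported here. The scripts were tested on simulated data. Replicates differed by more than counting error (chi-square per degree of freedom 4.51 to 48.2, over genes with at least 10 reads). The expected counts were set by total reads without TMM, so this includes shifts in composition such as that of Gm10800. Members had 369 to 10050 reads per library, with no molecular identifiers. Alternatives were other filters (1, 10 TPM or none), pseudocounts (0.5 and 3), scalings, voom on the recovered reads, a replicate block, only the groups compared, and each library left out. Python 3.11.15 was used.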

Additional observations from a re-analysis of the deposited data

Results flagged for a closer look

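The genotypes differed in how Socs1 changed with stimulation, as tested by the interaction term of limma (2.04 on the log2 scale, adjusted p = 0.0137 over all genes). On the scaled values, all 3 stimulated cKO libraries were above the ex vivo cKO libraries, and all 3 stimulated WT libraries were below the ex vivo WT libraries. The interaction was not called under the 1 TPM filter (1.75, adjusted p = 0.51), without a filter (1.73, adjusted p = 0.49) or as deposited (1.51, adjusted p = 0.0984).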

How the results depend on the processing

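Of the 20 called member differences, none changed direction under any alternative, and 4 were called under every one (Socs2 for genotype after stimulation, Socs3 for stimulation in each genotype, and Stat4 for stimulation in cKO). The 10 TPM filter, both pseudocounts, median of ratios, quantile and voom fits kept all 20. The TPM as deposited kept 13, and the 1 TPM filter and no filter each kept 4. Socs2 passed the 10 TPM filter only through the cKO groups. It averaged 15.6 and 20.8 TPM there as deposited, against 5.33 and 5.29 in WT, so its genotype calls under that filter are no support. The counts of called members, 3 and 4 for genotype ex vivo and after stimulation, 5 and 7 for stimulation in WT and cKO and 1 for the interaction, became 0, 1, 1, 2 and 0 under the 1 TPM filter and likewise 0, 1, 1, 2 and 0 without a filter. As deposited, 2 were called for genotype after stimulation, 4 for stimulated against ex vivo cKO and 0 for the interaction. Quantile normalization gave 7 for genotype after stimulation (Stat3, Stat4 and Stat5a added) and 5 for the interaction (Socs1, Socs2, Cish, Stat3 and Stat4). The 10 TPM filter and voom each gave 2 for the interaction, Socs1 and Socs2. For Socs2 the 10 TPM filter is no support here either. Leaving out a library gave 1 to 3 for genotype ex vivo (1 without cKO library 1 or 3), 3 to 6 after stimulation, 5 to 6 and 7 to 8 for stimulation in WT and cKO, and 1 to 2 for the interaction (2 without cKO stimulated library 3). The cause was not tested, but the scaling factor of cKO stimulated library 3 was 0.732 over the 5 TPM genes and 1.13 over the 1 TPM genes.

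Members that were not called reversed as follows. For genotype ex vivo, Stat4 (-0.11) became 0.12 as deposited. For genotype after stimulation, Stat4 (0.28) became -0.029 under the 1 TPM filter, -0.025 without a filter and -0.013 as deposited, Stat5a (0.23) became -0.076, -0.073 and -0.061, and Stat5b (-0.14) became 0.077 with quantile normalization and ranged from -0.27 to 0.0023 over the fits that left out a library. For stimulation in WT, Cish (-0.08) became 0.042 under the 10 TPM filter, 0.12 as deposited and 0.18 with quantile normalization, and Stat6 (0.16) became -0.091 under the 1 TPM filter and -0.063 without a filter. For stimulation in cKO, Cish (0.31) became -0.23 under the 1 TPM filter, -0.22 without a filter and -0.015 as deposited, and Stat6 (0.17) became -0.37, -0.36 and -0.16 in the same order. For the interaction, Socs3 (-0.10) became 0.025 under the 10 TPM filter and 0.15 with quantile normalization (-0.30 to 0.14 with a library left out), and Stat5a (-0.06) became 0.067 and 0.19 (-0.24 to 0.13). As deposited, the interactions of Cish and Stat4 became -0.13 and -0.14. Under the 1 TPM filter, without a filter and as deposited, those of Stat3 became -0.069, -0.085 and -0.30, those of Stat5b -0.14, -0.16 and -0.38, and those of Stat6 (0.0021) -0.28, -0.30 and -0.52. The Stat6 interaction was -0.0042 with voom and -0.11 to 0.16 with a library left out.

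Equal replicate numbers paired the libraries at most between the ex vivo groups. There every WT library correlated best with its own number, and correlations of same-numbered deviations were 0.078 to 0.26. Between the other groups these correlations were -0.21 to 0.057. A replicate block kept all 20 calls (3, 4, 6, 7 and 1 per comparison) and added Socs1 for stimulation in WT (-0.62). With 3 libraries per group and 369 or more reads per member and library, the spread between libraries limits precision more than counting does.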
